A study of Mus musculus with 3 samples.

Results

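Dermal fibroblasts of the back skin form layers. Those of the upper (papillary) dermis lie under the epidermis and give rise to the hair follicle mesenchyme, and those of the lower (reticular) dermis and the fascia below it deposit the fibrillar collagen bed and hold the precursors of skin adipocytes. Upper cells are known for Wnt/β-catenin targets, and deep cells for collagen-binding and elastic fibre proteins and for the surface marker Sca-1, which is encoded by Ly6a.

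The deep dermal fibroblasts at E16.5 described here were 197 cells of the 5208 cells in the E16.5 library, which is 3.78% of that library (95% exact binomial interval 3.28% to 4.34%). They were selected on measured values. A cell was a member where it had no unique molecular identifier (UMI, 1 captured transcript) of the endothelial gene Cdh5, the leukocyte gene Ptprc, the neural crest gene Sox10, the epidermal gene Trp63 or the dermal condensate and endothelial gene Sox18, and where it held at least 2 more of 6 deep genes than of 6 upper genes. The deep genes were Dpt, Mfap4, Ly6a, Clec3b, Agtr2 and Aspn, and the upper genes were Wif1, Itih5, Pth1r, Twist2, Egfl6 and Wisp1. Of the 2852 cells at E16.5 with 0 for the 5 excluding genes, 6.91% were members, and the other 2655 are the reference. Among them, 1943 cells held at least 2 more upper than deep genes and are called upper cells.

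Back skin of male C57BL/6 mice had been profiled in droplets by scRNA-seq, which reads the 3′ ends of transcripts in single cells, at E13.5, when follicles are induced, at E16.5, when they grow down, and at P0, the day of birth. There was 1 library per stage, made from the microdissected skin of several pooled animals, with no allele or agent given in the labels. Fetal skin of both stages was digested with trypsin and P0 skin with collagenase IV. Stage and library cannot be told apart, nor can digestion where P0 is compared. The same rule gave 259 deep cells of 5962 at E13.5 and 300 of 5065 at P0, where they were 5.92% of the library (5.29% to 6.61%). No group has a replicate library, no test was run, and every interval below is a 95% interval for counting error only.

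Members had a median of 10205 UMIs and 3124 genes per cell, close to the 9906 UMIs of the upper cells, and their UMIs summed to 2084022. The deep cells of the other stages were shallower, with a median of 5248 UMIs at E13.5 and 7057 at P0. Between 32 and 44 cell barcodes were shared by each pair of libraries, and 4 members carried a barcode that another library also held. The doublet caller Scrublet called 79 cells of the E16.5 library and 0 of the members.

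The values that chose the members are given first, as a description. Levels are UMIs summed over a group per 1000000 UMIs of that group (CPM). Agtr2, which encodes the angiotensin II type 2 receptor, was at 1236 CPM in members and 75.5 in upper cells, with quartiles over single members of 612 and 1820 CPM. Mfap4, a microfibril-associated glycoprotein, was at 1328 against 126 CPM, and Aspn, which encodes the small proteoglycan asporin, at 870 against 18.1 CPM. Dpt, the collagen-binding protein dermatopontin, was the deep gene least restricted to members, at 548 CPM against 170 CPM in upper cells and 220 in the reference. Clec3b, the plasminogen-binding protein tetranectin, was at 329 against 2.30 CPM. Ly6a was at 119 against 0.910 CPM and was held by 34 of the 197 members, so most members entered the rule without it.

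The upper genes were not empty in members. Twist2, a basic helix-loop-helix factor of the dermis, was at 277 CPM against 1208 in upper cells, and 148 of 197 members held at least 1 UMI of it. Egfl6 and Pth1r were at 128 and 108 CPM against 815 and 634, and Wif1, a secreted Wnt inhibitor, was at 5.28 against 388 CPM. The commonest profile was 5 deep genes with 3 upper genes, in 81 members (41.1%), whereas 16 members entered with only 2 deep genes and no upper gene. At the threshold, the 136 cells with a score of 2 had 1246 CPM of Agtr2 and 130 of Pth1r, and the 192 cells just outside it, with a score of 1, had 1048 and 156 CPM. Clec3b was at 293 and 177 CPM in these cells, Ly6a at 97.4 and 65.1, and Wif1 at 4.83 and 14.1. Above the threshold, 49 cells had a score of 3, 10 a score of 4 and 2 a score of 5.

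**Figure D1:**
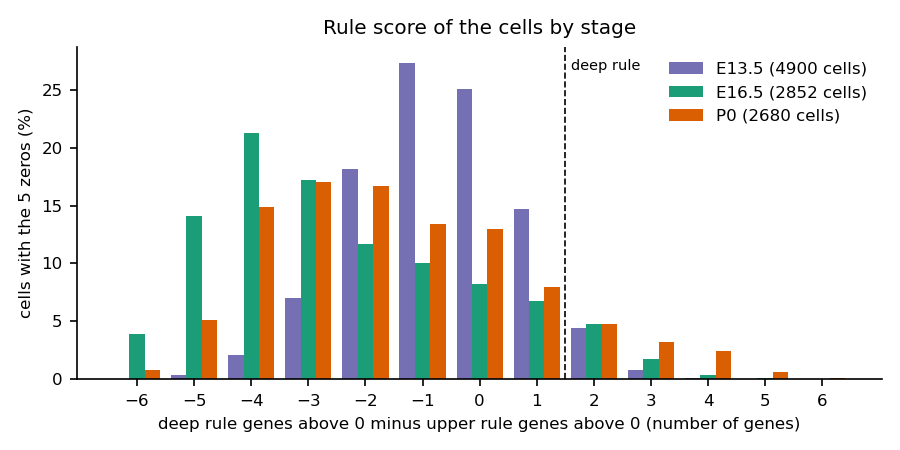
Number of deep rule genes minus number of upper rule genes above 0 in each cell, as a percentage of the cells with the 5 zeros (y axis), at E13.5 (purple), E16.5 (green) and P0 (orange), with the member threshold dashed. The E16.5 bars peak at -4, and the 197 members are the green bars at 2 or more.

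Each rule gene was then left out of the count in turn, and its own level was read in the cells that the remaining genes chose. Of the 6 deep genes, 5 stayed at least 2-fold above the reference, where the reference is again all other cells with the 5 zeros. Aspn was at 920 CPM in the 65 cells chosen without it and 160 in the rest, a log2 difference of 2.45 (2.33 to 2.57), where 10 CPM was added to both groups before the ratio was taken. Clec3b followed with 254 against 39.7 CPM (2.41, 2.22 to 2.59), then Mfap4 with 1.91, Agtr2 with 1.87 and Ly6a with 1.53, and Dpt was just under 2-fold at 0.93 (0.78 to 1.08). Of the 6 upper genes, 5 stayed at least 2-fold below, from Wif1 at -3.47 to Itih5 at -1.15. Wisp1, a Wnt-induced matricellular gene, was not lower once it was left out, at 88.6 against 80.7 CPM (0.12, -0.05 to 0.29). At E13.5 none of the 6 deep genes reached 2-fold in the same reading, and the highest was Agtr2 with 306 against 191 CPM (0.66, 0.37 to 0.93). With the rule applied to cells thinned to 3500 UMIs, some of these calls differed: Aspn at E13.5 was at 1.07 (0.90 to 1.23), and at E16.5 Dpt was at 1.49 and Itih5 at -0.95, so that all 6 deep genes and 4 of the 6 upper genes were at least 2-fold apart at E16.5. At P0 Clec3b, Ly6a and Agtr2 were farther apart than at E16.5, with log2 differences of 3.61, 3.09 and 2.99.

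The label was checked against markers. Col1a1 and Col1a2, the chains of type I collagen, stood at 9704 and 8561 CPM in members and 6976 and 5655 in upper cells, and all 197 members held Col1a1. The fibroblast proteoglycan genes Lum and Dcn were at 1520 and 2802 CPM against 2574 and 2473. None of the 8 dermal fibroblast markers was 2-fold apart. Of 17 tested markers of deep dermis and fascia outside the rule, 13 were at least 2-fold higher in members than in upper cells. Only 1, Thbd, was lower. The median log2 difference of the 17 was 1.74, and 2.77% of all 11273 genes tested were higher. Among the 13, Pi16 rested on sub-cluster 5, described below, which held 74 of its 84 UMIs. Pi16 was at 5.29 CPM in the other members and 0.862 in upper cells. Thbd, the thrombin receptor thrombomodulin, was at 3.36 against 32.7 CPM. Of 16 upper dermis markers, 8 were at least 2-fold lower and 0 higher, where 1.42% of all genes were lower.

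The members were not uniform. Clustering them alone, without rule or cell cycle genes, gave 5 sub-clusters, and the genes that lead each are a description of that partition. Sub-cluster 1, with 66 members (33.5%), had C1qtnf3, Igf1, Rgcc, Gas6, Gfra1, Tnc and Eln among its leading genes. Elastin (Eln) stood at 974 CPM there and 213 in the other members, and the insulin-like growth factor gene Igf1 at 385 against 40.0 CPM. This sub-cluster also had most Mfap4, at 2972 CPM, and most Aspn, at 1746 CPM.

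Sub-cluster 2, with 60 members (30.5%), had few genes that set it apart. Pparg, the master regulator of adipogenesis, was at 57.5 CPM against 11.9 in the other members, the microsomal transferase gene Mgst1 at 474 against 150 CPM, and the lipoprotein lipase gene Lpl at 222 against 79.4 CPM. Its leading genes also included the mast cell genes Cma1, Cpa3 and Hdc and the chemokine gene Ccl5, which rested on single cells: all 70 UMIs of Ccl5 and 99 of 131 UMIs of Cma1 came from 1 cell each. It is left unnamed.

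Sub-cluster 3, with 27 members (13.7%), went against the fibroblast label. Rgs5, a regulator of G-protein signalling known in pericytes, was at 1027 CPM against 6.54 in the other members and was held by 26 of the 27 cells, and Cox4i2, Adra2a and Gucy1a3 followed. Pdgfrb and Acta2 were at 515 and 779 CPM, whereas Col1a1 was at 655 CPM against 10157 to 11884 in the other 4 sub-clusters and Pdgfra at 7.99. These pericyte-like cells held on average 2.67 deep genes and 0.48 upper genes. Clec3b had 0 UMIs in them and Aspn was at 555 CPM. Lyz2, also among their leading genes, had 230 of its 233 UMIs in 1 cell. Results below are given for all 197 members. For each gene list whose called genes against upper cells differed among the 170 members without these cells, that difference is given too. Lists were not recounted without these cells in the comparisons with deep cells of the other stages.

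Sub-cluster 4, with 27 members, was led mainly by genes of dividing cells: the histone gene Hist1h2ap was at 1982 CPM against 185, the kinetochore gene Cenpf at 416 against 39.1 and the topoisomerase gene Top2a at 509 against 64.0. The keratin gene Krt15, known in keratinocytes, was also among its leading genes, at 476 against 64.0 CPM with 70 of its 189 UMIs in 1 cell. Epithelial genes summed to 1702 CPM in sub-cluster 4 and to between 498 and 584 CPM in the other 4. Sub-cluster 5 was the smallest, with 17 members (8.63%). Igfbp6 was at 847 CPM against 15.9 in the other members, Ly6a at 1007 against 27.5, Pi16 at 382 against 5.29, Sema3c at 909 against 28.0, Wnt2 at 320 against 6.35 and Mfap5 at 1740 against 80.9. Its cells held on average 5.94 of the 6 deep genes and 3.53 upper genes, with Clec3b at 1322 CPM and Itih5 at 367 CPM. These 17 cells held 337 of the 490 Mfap5 UMIs, 195 of the 247 Ly6a UMIs and 164 of the 194 Igfbp6 UMIs of the members.

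**Figure D2:**
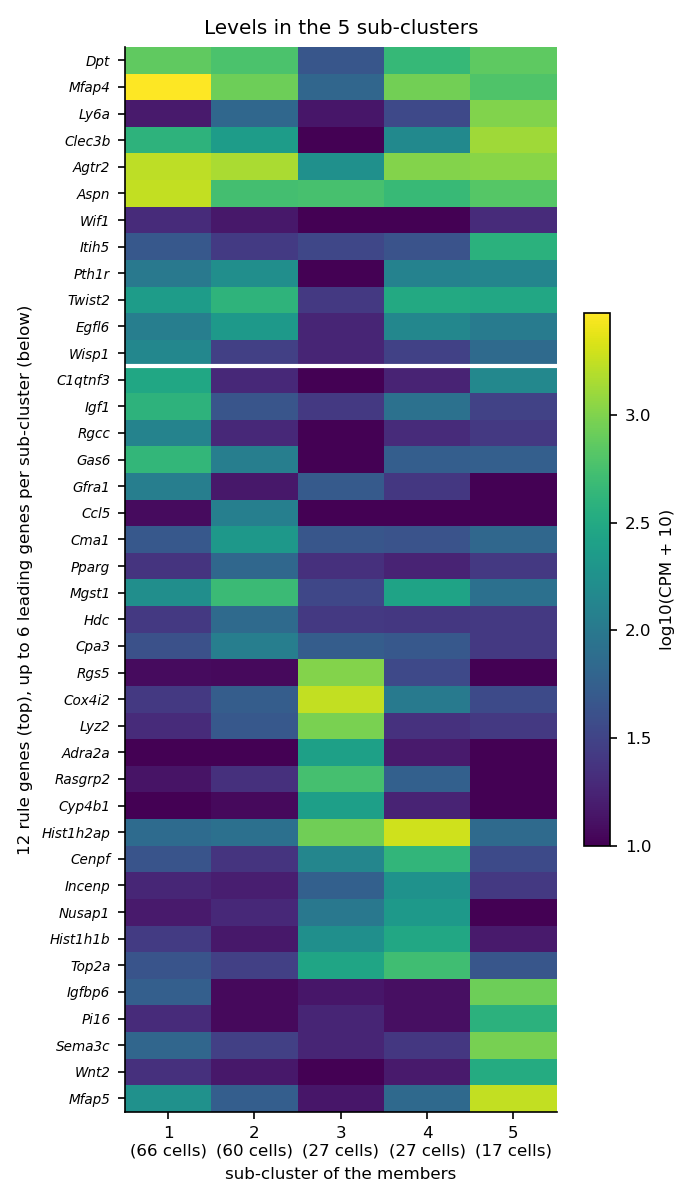
Level of the 12 rule genes (above the white line) and of up to 6 leading genes of each sub-cluster (below) in the 5 sub-clusters of members, as log10(CPM + 10). Sub-cluster 3 is dark for Clec3b, Mfap4 and Dpt and bright for Rgs5 and Cox4i2, and sub-cluster 5 is bright for Ly6a, Igfbp6, Sema3c and Mfap5.

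Outside the rule, 312 genes were at least 2-fold higher and 160 at least 2-fold lower in members than in upper cells. Against the whole reference, which holds the upper cells too, 208 of 11956 genes were higher (1.74%) and 121 lower (1.01%). Of the 10 highest genes against the reference, 8 were also among the 10 highest against upper cells, and the others were Nppc (2.24) and Plagl1 (2.22). Of the 10 lowest, 9 were shared, and the other was Ccer2 at -2.55, which had 1587 UMIs in the reference with 35.0% of them in 1 cell. Mfap5, which encodes a glycoprotein of elastic microfibrils, differed most, at 235 CPM in members and 2.59 in upper cells (log2 difference 4.28, 4.13 to 4.43), and lies at chr6:122505845-122529290 (mm10). Postn, the matricellular protein periostin, was at 1356 against 79.6 CPM (3.93, 3.85 to 4.01), and unlike Mfap5 it was held by 189 of 197 members, with a median of 1343 CPM per member and 0 per upper cell.

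The growth factor pleiotrophin (Ptn) was at 1379 against 106 CPM, with a log2 difference of 3.58. The angiopoietin-like gene Angptl1 was at 196 against 3.59 CPM (3.92), the X-linked kinase gene Nrk at 298 against 13.8 (3.69), and the scaffold gene Akap12 at 214 against 9.39 (3.53). Kcnj8, a potassium channel subunit also known in pericytes, was at 158 against 5.27 CPM (3.46), and at 84.5 CPM without the pericyte-like members (2.63). Sema3c, Fibin and Igfbp6 completed the 10 highest, with log2 differences of 3.28, 3.22 and 3.20.

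On the lower side, Stmn2, a microtubule regulator best known in neurons, was at 17.8 CPM in members and 303 in upper cells, a log2 difference of -3.49 (-3.80 to -3.18), and 11 of its 37 UMIs in members came from 1 cell. Trps1, a zinc-finger repressor of the GATA family, was at 10.1 against 176 CPM (-3.21, -3.52 to -2.87). The Wnt pathway genes Dkk1, Sfrp5, Lef1 and Nkd1 followed at -2.90, -2.68, -2.59 and -2.47, with Dkk1 at 1.44 CPM (3 UMIs) in members and 75.2 in upper cells. Cpne5, Bcl11b, Cav1 and Lix1 completed the 10 lowest, and Cav1, which encodes the caveola protein caveolin-1, was the most abundant of them, at 70.5 against 451 CPM (-2.52).

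**Figure D3:**
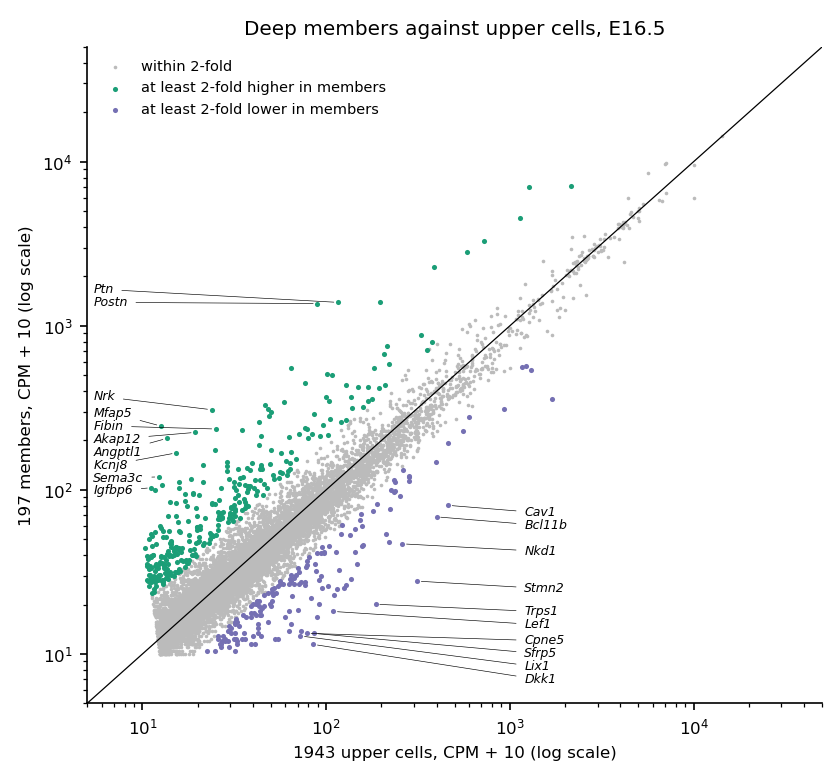
Level of each of 11273 tested genes in the 1943 upper cells (x axis) and the 197 members (y axis), both as CPM + 10 on log scales, with the 10 highest and 10 lowest genes labelled. 312 genes lie at least 2-fold above (green) and 160 at least 2-fold below (purple) the line of equal levels.

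Of 21 adhesive and matricellular genes tested, 16 were at least 2-fold higher and 1 lower than in upper cells, with a median log2 difference of 1.41. The median over all genes was -0.05. Thbs2, which encodes thrombospondin 2, was at 302 against 38.0 CPM (2.70), versican (Vcan) at 499 against 91.7 (2.32), fibronectin (Fn1) at 660 against 197 (1.69) and Tnxb, a tenascin whose loss loosens the dermis, at 28.8 against 1.10 (1.80). The exception was Has2, a hyaluronan synthase, at 3.36 against 20.4 CPM (-1.18).

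Among elastic fibre and crosslinking genes, 8 of 19 were at least 2-fold higher and 0 lower, and 9 without the pericyte-like members, where Ltbp3 was at 1.02. The crosslinking enzyme genes Loxl1 and Lox were at 290 and 412 CPM against 40.3 and 140 (2.58 and 1.50), and Eln and the fibrillin gene Fbn1 at 426 and 337 against 118 and 93.7 (1.77 and 1.74). Fbln2 and Ltbp4 lay in the other direction without reaching 2-fold, at -0.62 and -0.58.

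Of 22 collagen genes tested, 6 were at least 2-fold higher and 1 lower. Col14a1 and Col12a1, which encode the fibril-associated collagens XIV and XII, were at 274 and 488 CPM against 38.9 and 97.8 (2.54 and 2.21), and Col5a3 at 36.5 against 1.82 (1.97). The basement membrane chains Col4a1 and Col4a2 were at 1.31 and 1.36, and at 1.0 and 1.04 without the pericyte-like members. Without them 6 collagen genes were still called higher, but Col18a1 was at 0.28 where it had been at 1.26, and Col5a1 at 1.09 where it had been at 0.95. Col7a1, the anchoring fibril collagen at the junction with the epidermis, was lower, at 31.7 against 133 CPM (-1.78). The abundant fibrillar chains differed less, with Col1a1 at 0.48 and Col3a1 at 0.47.

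Of 7 small leucine-rich proteoglycan genes, 4 were at least 2-fold higher: Ogn at 223 against 25.0 CPM (2.73), Fmod, Prelp and Bgn. Lum was at -0.76. Of 27 matrix protease and inhibitor genes, 7 were higher and 1, Mmp11, lower. The counts were equal without the pericyte-like members, with Timp3 at 0.61 in place of 1.11 and Cpxm1 now called. Htra3, a secreted serine protease, was at 204 against 34.4 CPM (2.27), and the procollagen C-proteinase enhancer Pcolce at 864 against 317 (1.42).

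A list of the Igf axis and of imprinted genes, which holds both promoters and inhibitors of growth, was higher in members as a group. Of 26 tested genes of the Igf axis and of imprinted growth genes, 18 were at least 2-fold higher in members than in upper cells and 0 lower, with a median log2 difference of 1.42, and the same counts held without the pericyte-like members. The summed level of the list was 33384 CPM in members, 13380 in the reference and 9989 in upper cells. Igf2, the fetal insulin-like growth factor on chromosome 7, was at 2825 against 573 CPM (2.28, 2.24 to 2.33), with a median of 3013 CPM per member and 296 per upper cell. H19, the noncoding RNA that neighbours it, was at 3284 against 709 CPM (2.20).

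Dlk1, which encodes a preadipocyte inhibitor related to Notch ligands, was the most abundant of the deep dermis markers, at 7048 against 1261 CPM (2.47, 2.44 to 2.50). Its lower quartile over members, 4497 CPM, lay above its upper quartile over upper cells, 1597 CPM. Meg3 was at 7108 against 2132 CPM (1.73), Mest at 1390 against 187 (2.83), the cyclin-dependent kinase inhibitor gene Cdkn1c at 4535 against 1130 (1.99), and the zinc-finger gene Plagl1 at 546 against 54.1 (3.11). Igf2r, the clearance receptor for Igf2, was also higher (1.40), whereas Igf1r was at 0.33. Among the binding proteins, Igfbp4, Igfbp7, Igfbp2 and Igfbp3 were higher by 2.83, 2.12, 1.74 and 1.43, and Igfbp5 was at -0.56.

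The Wnt pathway, by which epidermal ligands act on the upper dermis, had genes in both directions. Of 36 genes tested, 6 were at least 2-fold higher and 9 lower. The lower set held the nuclear factors Lef1 (8.16 against 99.4 CPM) and Tcf7 (2.88 against 29.9), the feedback targets Axin2 (16.3 against 66.7, -1.54), Nkd1 and Nkd2 (-1.20), the ligand Wnt4 (-1.31), and Rspo3, a secreted amplifier of the pathway, at 16.3 against 119 (-2.30). The higher set held a ligand, a receptor and secreted inhibitors: Wnt2 at 35.5 against 1.34 CPM (2.00), Fzd4 at 24.5 against 3.16 (1.39), Sfrp2 at 435 against 67.2 (2.53), Dkk2 at 75.8 against 6.99 (2.34) and Sfrp1 at 49.4 against 9.82 (1.58), with the nuclear factor gene Tcf7l2 at 1.02. Wnt2 was at 6.35 CPM outside sub-cluster 5. Ligands, nuclear factors and secreted inhibitors were thus each found on both sides, since Dkk1 and Sfrp5 were among the 10 lowest genes.

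Hedgehog targets were lower. Ptch1, the receptor and target gene, was at 15.4 against 84.6 CPM (-1.90) and Gli1 at 9.12 against 34.7 (-1.22), and the other 9 genes of that list lay within 2-fold, including the effector Gli2 at 25.9 against 25.2 CPM. In the Bmp and Tgf-beta list, 4 of 27 genes were lower and 2 higher. Bmp4 was at 12.5 against 55.5 CPM (-1.54), its antagonist Nog at 2.40 against 21.4 (-1.34), Inhba at -1.38 and Id1 at -1.03, while Bmp3 was at 26.4 against 5.37 (1.24) and Tgfb2 at 44.6 against 13.3 (1.23). Bmp3 had 46 UMIs in the 17 cells of sub-cluster 5 and was at 4.76 CPM in the other members, below its level in upper cells.

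In the Notch list, 4 of 11 genes were higher and 0 lower: Dlk1, Hes1 at 126 against 27.1 CPM (1.87), Notch3 (1.48) and Heyl (1.42). Without the pericyte-like members Notch3 was at 0.70, Heyl at 0.55 and Hes1 at 1.75, and the list had 2 genes higher and 1, Hey1 at -1.07, lower. Of 31 other growth factor genes, 9 were higher and 2 lower. Gas6, a ligand of the Axl receptor family, was at 166 against 14.8 CPM (2.82), and the epithelial growth factor gene Fgf7 at 27.8 against 0.719 (1.82). The receptor gene Fgfr1 was at 183 against 453 CPM (-1.26), and Edn3, the endothelin that acts on melanoblasts, at 7.68 against 30.5 (-1.20).

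Among the axon guidance genes, 4 of 27 were higher and 3 lower, and 4 lower without the pericyte-like members, with Sema6d at -1.09. Besides Sema3c, the guidance ligand gene Slit2 was at 92.6 against 16.7 CPM (1.94) and the ephrin receptor genes Epha3 and Epha4 at 1.99 and 1.56, while Robo2, which encodes a Slit receptor, was at 38.4 against 209 CPM (-2.18) and Efna5 at 44.1 against 201 (-1.96). Retinoid genes also divided: Rbp4, which encodes the plasma carrier of retinol, was higher, by 2.18, and Crabp1, which encodes the cellular retinoic acid-binding protein of the upper dermis, was at 349 against 1679 CPM (-2.23), with Cyp26b1 at -1.31 and Rarg at -1.17.

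Of 60 mesenchymal transcription factor genes, 15 were at least 2-fold higher and 9 lower. Tshz2 was at 92.6 against 5.80 CPM (2.70), Zfhx4 at 138 against 18.7 (2.37), Klf2 at 125 against 23.2 (2.02), Ebf1, an early factor of fat and stromal lineages, at 746 against 204 (1.82), and Zeb1 at 94.5 against 21.7 (1.72). Nr2f1 and Nr2f2 were at 1.25 and 1.17 with all members, and at 0.12 and 0.16 without the pericyte-like members. Without them 58 genes of the list were tested, of which 13 were higher and 10 lower, with Snai2 at -1.16 and Tshz3 at 1.04 newly called. Runx1 was at 6.72 against 79.6 CPM (-2.42), Tcf4 at 303 against 914 (-1.56), Foxd1 at 1.44 against 22.6 (-1.51) and Irx1 at 138 against 386 (-1.42). Zeb2 was lower where Zeb1 was higher, at 218 against 546 CPM (-1.29). Of 19 Hox genes, only Hoxa9 reached 2-fold, at 17.8 against 46.0 CPM (-1.01).

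**Figure D4:**
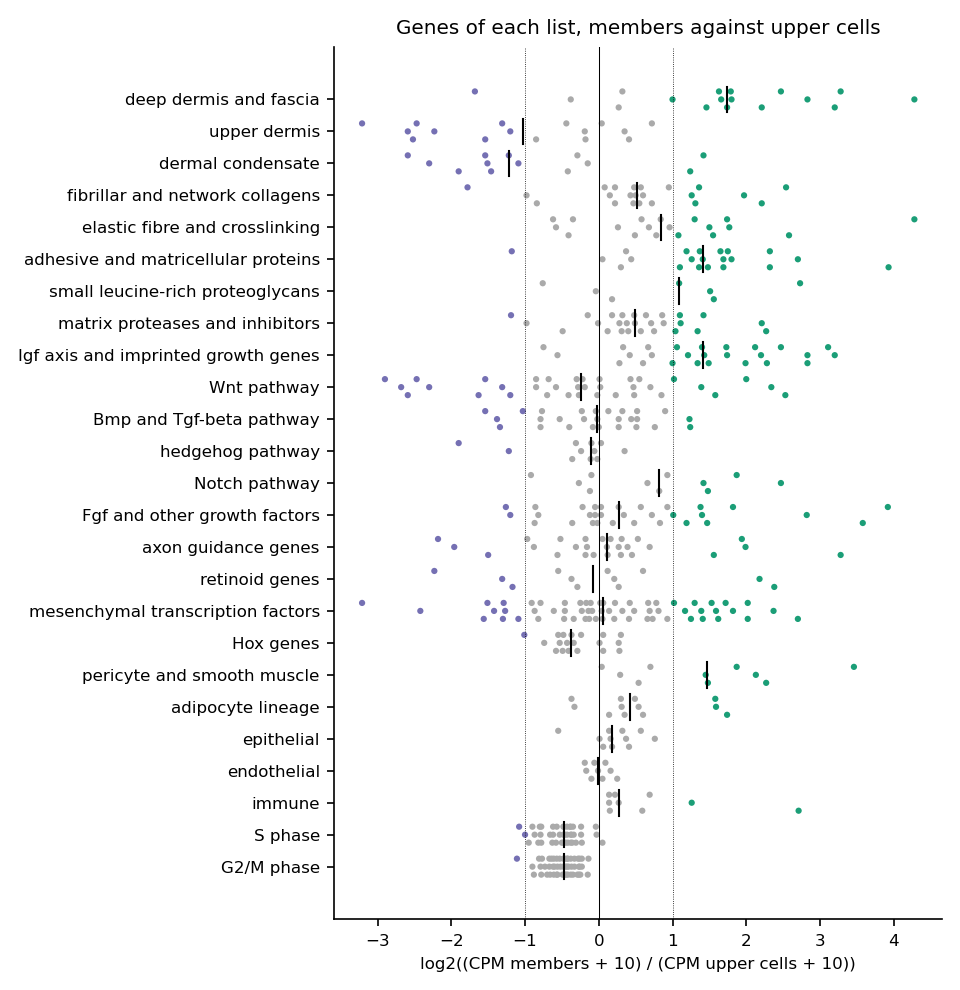
Log2 difference between members and upper cells (x axis) for each tested gene of 25 lists (rows), green at 2-fold or more higher, purple at 2-fold or more lower, with the list median as a black bar. The deep dermis, adhesive and matricellular and Igf axis medians lie at 1.74, 1.41 and 1.42 and the upper dermis median at -1.03.

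Genes of neighbouring cell types were read in the members. The 12 tested adipocyte lineage genes held 3 that were at least 2-fold higher: Fabp4 at 76.8 against 16.0 CPM (1.74), Ebf2 (1.59) and Lpl at 125 against 35.0 (1.58), whereas Adipoq, the defining gene of fat cells, had 0 UMIs in members and in upper cells. Without the pericyte-like members Ebf2 was under the UMI minimum, at 1.06, and 2 of 11 genes were higher. Pericyte and smooth muscle genes summed to 989 CPM in members and 259 in upper cells, with 6 of 10 higher, and summed to 465 CPM without the pericyte-like members, with 3 of 10 higher. Immune genes summed to 301 against 118 CPM, with Lyz2 and Cd52 higher, and to 152 CPM without those members, with 0 of 9 higher. Epithelial genes summed to 762 against 588 CPM with 0 of 11 past 2-fold, and endothelial genes to 61.4 against 58.5 CPM with 0 of 9. Tendon and cartilage genes had 3 of 7 higher, at a sum of 125 against 53.5 CPM. Their part in the other results was not tested, beyond the values given without sub-cluster 3.

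Haemoglobin and other erythroid genes summed to 7700 CPM in members and 5257 in upper cells. In the members, 2 cells held 13803 of the 16048 UMIs (86.0%), and without cells over 1000 such UMIs the sums were 1097 and 1126 CPM. Of the 16 genes of a dissociation response list, 15 were tested and 1, Egr1, was higher, at 346 against 167 CPM (1.01), and the list summed to 4061 against 2694 CPM. Without the pericyte-like members 2 were higher, with Ier3 at 1.04.

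A larger share of members than of upper cells was called G1 by phase score. On cells thinned to 3500 UMIs, 107 of 197 members (54.3%, 47.1% to 61.4%) were called G1 and 682 of 1943 upper cells (35.1%, 33.0% to 37.3%), and without thinning the members were at 54.8% and the upper cells at 35.7%. The summed levels had the same direction. S-phase genes summed to 1688 CPM in members and 2692 in upper cells, and G2/M genes to 4404 against 6948. Within the members the G1 share was 75.8% in sub-cluster 1, 70.6% in sub-cluster 5, 56.7% in sub-cluster 2, 40.7% in sub-cluster 3 and 0 of 27 in sub-cluster 4 (interval up to 12.8%). Other genes of dividing cells, such as Hist1h2ap, were not left out of the clustering, so the share in sub-cluster 4 describes that partition. The intervals of sub-clusters 1 and 5 overlapped, at 63.6% to 85.5% and 44.0% to 89.7%. Cells of a library are not replicates, and the intervals carry no spread between animals.

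The same contrast was read at the other stages, where the rule chose other cells. At P0, 380 of 9793 genes were at least 2-fold higher in deep than in upper cells (3.88%) and 292 lower (2.98%), and at E13.5 only 68 of 11116 were higher (0.612%) and 57 lower (0.513%). Of the 312 genes that were higher at E16.5, 276 were tested at P0 and 157 of them (56.9%) were at least 2-fold higher there, with 5 lower. They were 49.4% of the genes called higher at P0 that had been tested at E16.5. Of the 160 lower genes, 147 were tested at P0 and 80 (54.4%) were lower, with 0 higher. These 80 were 27.8% of the 288 genes called lower at P0 that had been tested at E16.5. At E13.5, 14 of 281 of the higher genes were called higher and 20 of 151 of the lower genes lower.

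Mfap5, Postn, Kcnj8 and Igfbp6 differed at P0 about as much as at E16.5. Mfap5 was at 257 CPM in deep and 2.08 in upper cells at P0 (4.47), and at 15.1 and 8.38 at E13.5 (0.45). Pericyte and smooth muscle genes, among them Kcnj8, summed to 1845 CPM in deep and 538 in upper cells at P0, with 9 of 11 higher. The part of pericyte-like cells in the P0 differences was not tested. Ptn was at 333 against 77.8 CPM at P0 (1.97), and at E13.5 it was high in both groups, at 1558 and 1071 CPM (0.54). Sfrp5 and Lix1, by contrast, were low in both groups at P0, with log2 differences of -0.05 and -0.14 there. Lix1 was already apart at E13.5, at 64.8 against 237 CPM (-1.72). Dlk1 was at 1815 and 1597 CPM in deep and upper cells at E13.5 (0.18) and at 6083 and 469 CPM at P0 (3.67).

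**Figure D5:**
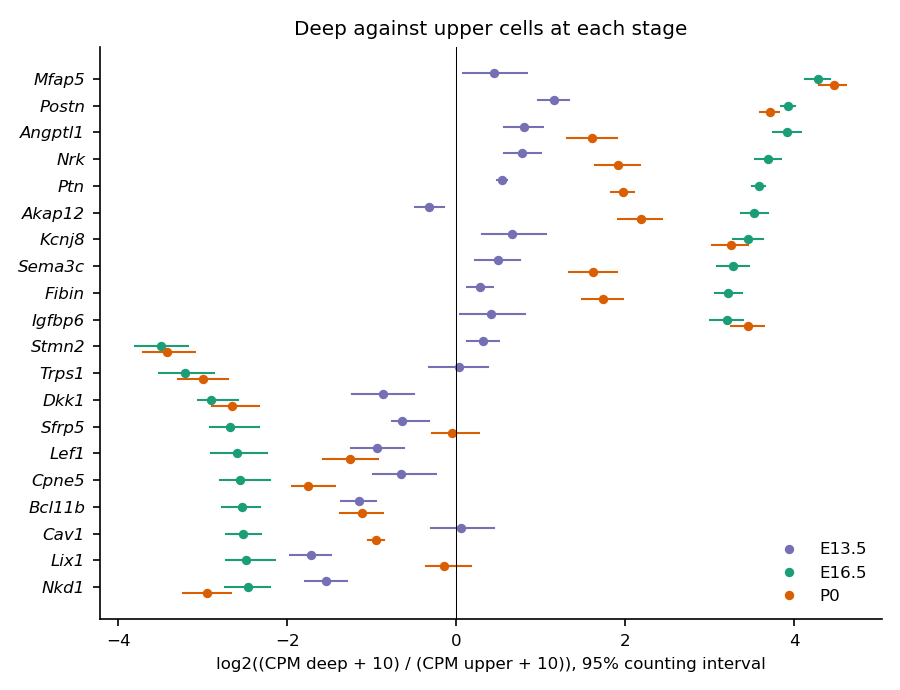
Log2 difference between deep and upper cells at E13.5 (purple), E16.5 (green) and P0 (orange) for the 10 highest and 10 lowest genes at E16.5, with 95% counting intervals as lines. The E13.5 points of the 10 highest genes lie between -0.32 and 1.16, and the P0 points of Mfap5, Postn, Kcnj8 and Igfbp6 lie at 3.25 or above.

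Members were then set beside the deep cells of the other stages directly. Against P0, 440 of 7464 genes were at least 2-fold higher in members (5.89%) and 283 lower (3.79%), and the median over all genes was 0.20. After scaling by the trimmed mean of M values, 214 were higher and 389 lower, so the balance of directions depended on the scaling, which lowered each log2 difference by up to 0.29. Igf2 was at 2825 CPM in members and 214 in deep cells at P0 (3.66, 3.54 to 3.79), Crabp1 at 349 against 21.5 (3.51), Nppc, the gene of C-type natriuretic peptide, at 90.2 against 0.431 (3.26), and Basp1 at 417 against 51.2 (2.80). In upper cells Igf2 was also lower at P0, at 573 CPM at E16.5 and 27.9 at P0, as were Crabp1 (1679 and 193) and Basp1 (403 and 98.9). Nppc went the other way in upper cells, at 1.72 and 21.7 CPM. In the Igf and imprinted list, 12 of 25 genes were at least 2-fold higher in members and 2 lower (9 and 2 after that scaling). Of the lower ones, Igfbp7 was at 178 against 1679 CPM (-3.17). Haemoglobin genes and the transcripts Gm42418 and AY036118 filled the rest of the 10 highest, and 2 members held most of the haemoglobin.

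Adipocyte genes were lower in members than in deep cells at P0. Of 13 adipocyte lineage genes tested, 9 were at least 2-fold lower and 0 higher under both scalings, and the list summed to 533 CPM in members and 5473 at P0. Fabp4 was at 76.8 against 2810 CPM (-5.02), Adipoq had 0 UMIs in members against 230 CPM at P0, and Cfd had 0 against 93.9 CPM. Car3 had 1 UMI in members and 658 CPM at P0. Upper cells differed in the same direction, with list sums of 306 CPM at E16.5 and 565 at P0. Fabp4 was at 16.0 and 190 CPM in them, Adipoq at 0 and 24.6, and Cfd at 0 and 38.4. In the other P0 cells with the 5 zeros Cfd was at 136 CPM, above its level in deep cells. Adipoq was held by 30 of the 300 deep cells at P0. Mup20, Hspa1a, Agt, Pnpla2, Hp and Trf completed the 10 lowest. Of 15 chemokine and complement genes, 10 were lower and 1 higher, and of 15 dissociation response genes, 10 were lower and 1 higher. The digestion differed between these libraries, and the dissociation list summed to 4061 CPM in members and 8304 at P0.

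Against E13.5, 417 of 7434 genes were at least 2-fold higher in members (5.61%) and 333 lower (4.48%), with a median over all genes of -0.10, and 551 and 240 after scaling by the trimmed mean of M values. Of 20 collagen genes tested, 16 were at least 2-fold higher and 0 lower under both scalings. The collagen list summed to 34545 CPM in members and 6032 in deep cells at E13.5. Upper cells differed in the same direction, with sums of 24067 CPM at E16.5 and 6184 at E13.5, so the rise was not particular to deep cells. Col6a3 was at 835 against 54.5 CPM (3.71), Col5a1 at 769 against 80.0 (3.11) and Htra3 at 204 against 5.45 (3.79). Adhesive and matricellular genes had 14 of 20 higher and matrix protease and inhibitor genes 15 of 24, with 0 lower in both. In upper cells these 2 lists were also higher at E16.5, with sums of 5527 against 2660 CPM and 5200 against 3121 CPM. Mfap5 was at 235 against 15.1 CPM (3.29), and Ndufa4l2, also known in pericytes, at 358 against 3.03 (4.82). In upper cells Htra3 was at 34.4 CPM at E16.5 and 4.79 at E13.5, Ndufa4l2 at 90.4 and 1.35, and Mfap5 at 2.59 and 8.38. The immediate-early genes Fos and Egr1 were at 714 and 346 CPM against 50.3 and 29.7. In upper cells Fos and Egr1 were at 521 and 167 CPM at E16.5 and at 49.7 and 23.8 at E13.5. They belong to the dissociation response list, of which 10 of 12 genes were higher and 1 lower, at a sum of 4061 against 1564 CPM. Lgals7, Cox4i2 and Col4a1 were the others among the 10 highest. The pericyte-like members held 440 of the 521 Cox4i2 UMIs and 320 of the 746 Ndufa4l2 UMIs of the members. Without them Cox4i2 was at 44.2 CPM against 13.9 at E13.5, and Ndufa4l2 at 232 against 3.03.

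Several of the lowest genes are known from other tissues. The embryonic globin gene Hbb-y was at 21.1 CPM in members and 6162 at E13.5 (-7.63), the muscle genes Myog and Actc1 at 2.88 and 10.6 against 441 and 533 (-5.13 and -4.72), and the neuronal tubulin gene Tubb3 had 0 UMIs against 182 CPM. Muscle genes summed to 70.1 CPM in members and 1500 in the E13.5 deep cells, endothelial genes to 61.4 against 344 and erythroid genes to 7700 against 20656. The chromatin factor Hmga2, an embryonic growth gene, was at 13.0 against 245 CPM (-3.47). In upper cells Hmga2 was at 25.5 CPM at E16.5 and 331 at E13.5, and Hbb-y at 46.9 and 5321. The summed level of the fibroblast markers was 33033 CPM in members, 6926 in the E13.5 deep cells and 41912 at P0. In upper cells that sum was 25528 CPM at E16.5, 6928 at E13.5 and 39111 at P0. Hba-x, Nnat, Igfbpl1, Tnnt1 and Ccl21a were the others among the 10 lowest. With a filter chosen after the values were seen, which kept cells of both groups with Lum and without 7 genes of other cell types, 345 genes were higher and 208 lower in 50 members than in 130 deep cells at P0, and 253 higher and 248 lower than in 115 deep cells at E13.5.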

How the data were processed

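Dorsal skin cells of 3 stages were measured by 3′ scRNA-seq, with 1 library per stage. The authors aligned and counted reads with Cell Ranger 2.2.0 against mm10 (submitters' processing notes), kept cells with at least 1750 genes, and deposited natural log values of 1 plus the UMIs scaled to 10000 per cell. All 48197283 values above 0 (19165 genes, 16235 cells) returned to whole UMIs within 0.01, and these UMIs were used.

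The members and the 36 gene lists were chosen with earlier results of these data known, so no count is independent support. UMIs were summed over each group and given as CPM, and 10 CPM was added to both sides of each log2 ratio, which understates the change of low genes. A gene was called at 2-fold or more among genes with at least 50 UMIs over both groups, with the 17 rule genes left out. With 1 library per group no test was possible and cells were not treated as replicates. Intervals on levels and shares are 95% exact Poisson or binomial intervals. Those on log2 differences combine the Poisson limits of both groups in quadrature and are approximate. All of them cover counting error only. Named genes were the rule genes, the 10 highest and 10 lowest of each comparison, the 8 leading genes of each sub-cluster, and up to 4 highest and 4 lowest of each list with further members that say what the list holds. Those further members were picked with their values in view, as were Cpe and Mef2c, which are in no list. Some genes that this rule names are not reported here.

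Members were clustered by Leiden (2000 variable genes, 20 components, 15 neighbours, resolution 0.5), and pericyte-like rests on a marker list. Phases were scored on cells thinned to 3500 UMIs (42 S and 52 G2/M genes). Scrublet doublets (0 at E13.5, where it was treated as not working, 79 and 113) were kept. The calling and scaling steps were tested on E16.5 upper cells split at random, with the counts of some genes changed by known amounts. All steps ran in Python 3.11.15 with numpy 2.4.6, scipy 1.17.1, pandas 2.3.3, scanpy 1.11.5, leidenalg 0.10.2 and matplotlib 3.10.9. Alternatives changed the threshold, depth, added CPM, UMI minimum, cell weight, scaling, phase, gene minimum and doublets.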

Additional observations from a re-analysis of the deposited data

Results flagged for a closer look

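The genes below were at least 2-fold apart between deep and upper cells at 2 stages, in opposite directions. The difference between the stages was not tested, since each stage is 1 library. Nppc, the gene of C-type natriuretic peptide, had a log2 difference of 3.10 at E16.5 (90.2 CPM in members, 1.72 in upper cells) and -1.60 at P0 (0.431 against 21.7 CPM). The Wnt inhibitor gene Dkk2 was at 2.34 at E16.5 (75.8 against 6.99 CPM) and -1.56 at P0 (4.31 against 32.0). Osr2, a zinc-finger factor, was at 1.30 (139 against 50.6 CPM) and -2.51 (130 against 792). Cpe, a prohormone-processing carboxypeptidase gene, was at 1.57 (43.2 against 7.95 CPM) and -1.11 (186 against 412). Dpp4, which encodes the surface protease CD26, was at 1.0 (19.7 against 4.79 CPM) and -1.36 (10.8 against 43.2). Mef2c was at -1.24 at E16.5 (109 against 271 CPM) and 1.40 at E13.5 (86.0 against 26.4).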

How the results depend on the processing

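Counts of called genes moved most with the CPM added before the ratio. With 1 CPM, 520 genes were higher and 608 lower than in the reference, 665 higher and 635 lower than in upper cells, 963 higher than in deep cells at P0, and 634 higher and 567 lower than at E13.5. With 50 CPM the counts were 50 and 22, 90 and 42, 86 and 106, and 160 and 71. With a minimum of 200 UMIs, 203 genes were higher than in upper cells, 201 higher and 148 lower than at P0, and 222 higher and 106 lower than at E13.5. Scaling by the trimmed mean of M values gave 214 genes higher than at P0. With a difference of at least 3 rule genes, 247 genes were lower than in upper cells, 147 lower than at E13.5, and 50.5% of the higher genes were also higher at P0. G1 cells alone gave 218 genes lower than at E13.5, and the Lum filter, chosen after seeing the data, 253 higher. The rule gave 389 members at a difference of at least 1 and 61 at 3, and 337 on thinned cells, of which 151 were among the 197. Leaving out 1 rule gene gave 80 members (Dpt), 77 (Mfap4), 102 (Clec3b), 67 (Agtr2), 65 (Aspn), 323 (Pth1r), 342 (Twist2) or 315 (Egfl6). Without the pericyte-like members, also chosen after seeing the data, 306 genes were higher and 202 lower than in upper cells. Of 1060 recomputed values of 80 named differences, 1058 kept their direction and 6 were below 2-fold. A changed UMI minimum selects genes and cannot alter a log2 difference, and a changed added CPM alters its size but not its sign. Values recomputed under these settings therefore kept their direction by construction. Of the 1060 values, 644 were classed as the same, 414 as moved without reversing, and 2 as reversed. The reversed ones were Ccer2 against the reference at a difference of at least 1 (1.56) and Ccl21a against E13.5 in G1 cells (0.52). The causes were not tested. No paired analysis was possible because the labels give no replicate numbers and each stage is 1 library.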

Other observations

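Ccl11, which encodes the chemokine eotaxin, was at 41.3 CPM in members and 2.97 in upper cells (log2 difference 1.98), and Ptgis, which encodes prostacyclin synthase, was at 44.1 against 1.15 CPM (2.28). Of 12 chemokine and complement genes tested, 2 were at least 2-fold higher and 0 lower (3 of 11 without the pericyte-like members, with Cxcl12 at 1.07), and of 10 angiotensin and vasoactive genes, 2 were higher and 0 lower. Among 13 dermal condensate genes, 8 were lower and 2, Bmp3 and Heyl, higher. Both rested on small sub-clusters, since Bmp3 was at 4.76 CPM outside sub-cluster 5 against 5.37 in upper cells, and Heyl was at 0.55 without the pericyte-like members, where 1 gene was higher. Of 5 muscle genes, 1 (Des, at 1.75) was higher and 0 lower, and without the pericyte-like members 0 were higher, with Des at 0.81. Of 4 Schwann and melanocyte genes and of 7 erythroid genes 0 reached 2-fold, of 42 S-phase genes 2 (Fen1 and Rrm2) were lower, and of 52 G2/M genes 1 (Hmgb2) was lower. Without the pericyte-like members 4 S-phase genes, with Tyms at -1.07 and Slbp at -1.03, and 3 G2/M genes, with Top2a at -1.06 and Kif11, were lower. The members' range of 3793 to 22815 UMIs per cell limits what single cells show, and 1 UMI stands for 0.480 CPM of the summed members, so that genes under 1.44 CPM rest on fewer than 3 UMIs.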
